A study of Danio rerio with 15 samples.

Results

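Collagen lysyl hydroxylases and collagen prolyl 4-hydroxylases were followed along the caudal fin of wild-type AB zebrafish, from its base to its tip. The genes are those whose symbol begins with *plod* or *p4ha* in the authors' pairwise tables: 6 of 23926 gene IDs, namely the lysyl hydroxylase genes *plod1a* (ENSDARG00000059746) and *plod2* (ENSDARG00000011821) and the prolyl 4-hydroxylase alpha subunit genes *p4ha1a* (ENSDARG00000033537), *p4ha1b* (ENSDARG00000071082), *p4ha2* (ENSDARG00000010085) and *p4ha3* (ENSDARG00000103692). RNA came from proximal, middle and distal fin regions, with 5 libraries per position, and no group carried a transgene, a mutation or a treatment. Each library was a pool of regions of 2 male and 2 female fish, so a value is an average over 4 fish and over all cell types of the region. Fish age was not given in the sources used here.

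Both enzyme families act on newly made collagen chains in the endoplasmic reticulum, and both use iron, oxygen, 2-oxoglutarate and ascorbate. Prolyl 4-hydroxylases make the hydroxyproline that keeps the collagen triple helix stable at body temperature; an alpha subunit, the catalytic part, assembles with protein disulfide isomerase, encoded by *p4hb*. Lysyl hydroxylases make hydroxylysine, to which sugars are attached and from which cross-links between collagen molecules form outside the cell. In fins, collagen is a main component of the bony rays, of the ray joints and of the actinotrichia, the fibrils at ray tips.

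Levels are normalized counts, reads divided by a size factor per library, given as mean ± SD over 5 libraries. The authors deposited means per position, and the read counts of the 5 libraries were solved from the digits of these means. The levels given here are on a scale over all 15 libraries, so they differ slightly from the means in the authors' pairwise tables. For *plod2* those means were 123.6 proximally and 689.7 distally in the distal to proximal comparison, where the levels here are 127 and 708. All 6 genes were solved in all 15 libraries. Libraries are numbered by size factor within a position and not by the replicate number of the labels. The 15 libraries held from 9738525 to 13178265 reads in solved genes. On the first principal component, with 61.6% of the variance, the 3 positions lay apart, and distal library 4, at 52.4, was nearest to the other positions, with the other distal libraries from 61.3 to 65.9. Without that library the distal to proximal log2 fold changes in limma were 2.55 for *plod2*, 0.43 for *plod1a*, 0.46 for *p4ha1a*, −0.81 for *p4ha2* and −2.73 for *p4ha3*, against 2.50, 0.40, 0.45, −0.86 and −2.36 with it. Folds and adjusted p-values are those of the authors' deposited tables (DESeq, Benjamini-Hochberg over each whole table) unless limma is named, and a gene was called at an adjusted p under 0.05. Transcript lengths were not used here, so levels are not compared between genes.

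Between the distal and the proximal fin, 5 of the 6 genes were called, 3 higher and 2 lower at the tip. Of all genes in that table, 36.0% were called, 17.9% higher and 18.1% lower. *plod2*, *p4ha1a* and *plod1a* rose and *p4ha3* and *p4ha2* fell, while *p4ha1b* was not called. A limma fit of the recovered counts called the same number, 5 of the 6, and called 51.5% of the 18832 genes it tested. The libraries of both positions did not overlap for 4 of the 6 genes, against 30.9% of 23287 solved genes of the table.

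**Figure D1:**
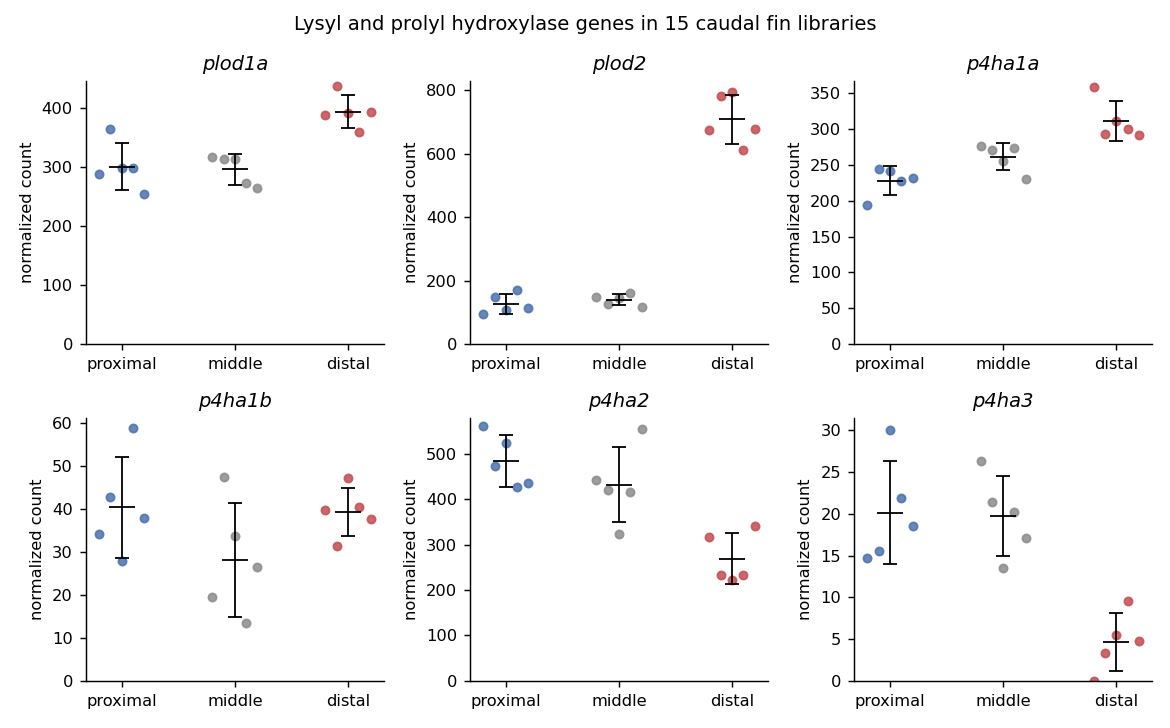
Normalized counts (vertical axes, each from 0) of the 6 genes in the 5 proximal, 5 middle and 5 distal libraries; points are libraries, the horizontal mark and bars are the mean ± SD. *plod2* stands at 611 or more in every distal library and at 169.5 or less in every proximal one, whereas *p4ha2* and *p4ha3* are lowest distally.

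*plod2* encodes lysyl hydroxylase 2, which in humans hydroxylates lysines of the collagen ends and is mutated in Bruck syndrome, a disorder of brittle bones and joint contractures. Its normalized counts in proximal libraries 1 to 5 were 95.8, 149, 106, 169.5 and 114, in middle libraries 148, 128, 144, 161 and 117, and in distal libraries 673, 783, 794, 611 and 678. The distal values lay far above all the others, and the proximal and middle values overlapped. The means were 127 ± 31.0 proximally, 139.7 ± 17.1 in the middle and 708 ± 78.3 distally. In the authors' deposited tables *plod2* was 5.58-fold higher distally than proximally (adjusted p = 7.36e-67) and 5.04-fold higher than in the middle (adjusted p = 2.04e-68). The middle and proximal fin differed 1.102-fold, which was not called (adjusted p = 0.841). In limma the distal to proximal fold had a 95% interval from 4.67 to 6.85, and the middle to proximal fold one from 0.895 to 1.39. Among 16430 genes with a mean of at least 20 normalized counts over both positions, 0.785% had a higher distal to proximal fold than *plod2*.

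*plod1a* encodes a lysyl hydroxylase 1; in humans this enzyme acts on lysines of the collagen helix, and its loss causes a kyphoscoliotic form of Ehlers-Danlos syndrome. Its normalized counts were 288, 364, 298, 298 and 254 in proximal libraries 1 to 5, 318, 314, 313, 272 and 264 in the middle and 387, 436, 392, 359 and 393 distally. Distal libraries were the higher ones, but proximal library 2, at 364, exceeded the lowest distal library. The mean went from 301 ± 39.8 proximally and 296 ± 25.9 in the middle to 394 ± 27.6 distally. That was a rise of 1.31-fold over the proximal fin (adjusted p = 0.00738) and 1.32-fold over the middle (adjusted p = 0.00546) in the authors' deposited tables (DESeq). In limma the distal to proximal fold of *plod1a* had a 95% interval from 1.15 to 1.503, which lies below that of *plod2*. Between the middle and the proximal fin the fold of *plod1a* was 0.985 (adjusted p = 0.999 in the authors' table).

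The third lysyl hydroxylase gene, *plod3*, is listed in the tables under the symbol wu:fb72h05 and so falls outside the rule for the family; it was added after its values were seen. Its product also transfers sugars onto hydroxylysine, and the zebrafish mutant of this gene is known as *diwanka*, with misguided motor axons. Its mean was 562 ± 22.4 in the proximal, 595 ± 37.1 in the middle and 624 ± 64.4 in the distal libraries. No pair of positions was called in the authors' deposited tables, where the distal to proximal fold was 1.11 (adjusted p = 0.323). The limma interval of that fold ran from 0.993 to 1.23.

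Among the prolyl 4-hydroxylase alpha subunits, *p4ha2* fell towards the tip. It encodes the alpha(II) subunit, which in mouse is the main form of cartilage and contributes to bone. Its normalized counts in libraries 1 to 5 were 562, 472, 523, 427 and 436 proximally, 442, 420.3, 324, 416 and 556 in the middle and 317, 232, 222, 234 and 341 distally. Every distal library was below every proximal one, and distal library 5, at 341, reached above middle library 3. The means were 484 ± 57.9, 432 ± 82.7 and 269 ± 55.6 from base to tip. In the authors' deposited tables *p4ha2* was 1.80-fold lower distally than proximally (adjusted p = 2.71e-08) and 1.61-fold lower than in the middle (adjusted p = 0.00140), and the middle to proximal fold of 0.893 was not called (adjusted p = 0.728).

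*p4ha3* encodes the alpha(III) subunit and had few reads: 105 over the proximal, 104 over the middle and 22 over the distal libraries. Its normalized counts were 14.7, 15.5, 30.0, 21.9 and 18.6 proximally, 26.3, 21.4, 13.5, 20.2 and 17.1 in the middle and 0, 3.37, 5.49, 9.60 and 4.73 distally. All distal values were lower than all others. Distal library 1 held no read, which allows up to 3.62 normalized counts there, from 3 reads and for counting error only. The mean was 20.1 ± 6.20 proximally, 19.7 ± 4.80 in the middle and 4.64 ± 3.48 distally. In the authors' deposited tables *p4ha3* was 4.34-fold lower distally than proximally (adjusted p = 1.18e-05) and 4.27-fold lower than in the middle (adjusted p = 1.68e-05). The limma interval of the distal to proximal fold ran from 0.0948 to 0.399. Without distal library 1, the one with no read, the limma log2 fold change was −1.75 in place of −2.36 against the proximal fin (adjusted p = 0.000668) and −1.72 in place of −2.34 against the middle (adjusted p = 0.00121).

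*p4ha1a* and *p4ha1b* are the zebrafish copies of the alpha(I) subunit gene, whose product is the main alpha subunit of most mammalian cell types. How the authors counted reads that match both copies is not given in the sources used here. *p4ha1a* stood at 194, 244, 242, 228 and 231 normalized counts in proximal libraries 1 to 5, at 276, 271, 255, 273 and 230.2 in the middle and at 358, 293, 311, 299.7 and 292 distally. Every distal library lay above every proximal and every middle library. The means were 228 ± 20.2, 261 ± 19.0 and 311 ± 27.7. The authors' deposited tables gave a 1.37-fold rise from proximal to distal (adjusted p = 0.00334), while neither step was called, with 1.15-fold from proximal to middle (adjusted p = 0.519) and 1.18-fold from middle to distal (adjusted p = 0.162). In limma the step from middle to distal was called (adjusted p = 0.0257), and that call ended without distal library 1 (adjusted p = 0.0779) or middle library 5 (adjusted p = 0.0775).

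For *p4ha1b* no pair of positions was called. Its normalized counts were 34.2, 42.7, 28.1, 59.0 and 38.1 proximally, 19.5, 47.6, 33.7, 13.5 and 26.5 in the middle and 39.8, 31.4, 47.2, 40.5 and 37.8 distally, so all 3 positions overlapped. The means were 40.4 ± 11.7, 28.1 ± 13.2 and 39.4 ± 5.67. The distal to proximal fold was 0.974 in the authors' deposited table (adjusted p = 0.954), and its direction turned under a scaling to equal totals per position, with a log2 fold change of 0.06 in limma. The limma interval, from 0.692 to 1.43 in fold, includes the 1.37-fold change of *p4ha1a*. The difference between the copies was not tested.

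**Figure D2:**
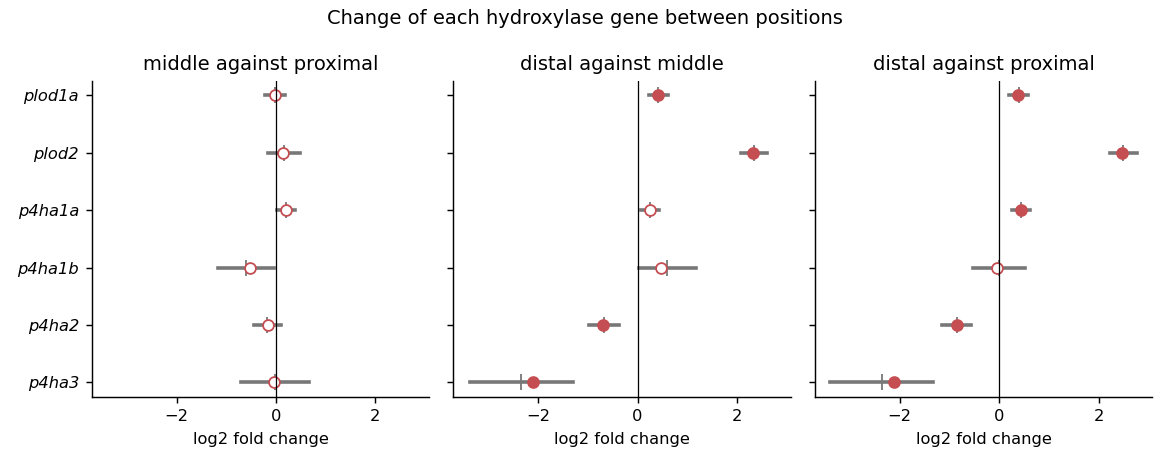
Log2 fold change (horizontal axis) of the 6 genes in the 3 comparisons. Circles are the authors' values, filled where their adjusted p is under 0.05, and grey bars are 95% intervals of the limma fit of recovered counts with its estimate as a tick; no circle is filled between the middle and the proximal fin.

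The called changes were all in comparisons with the distal fin. Between the middle and the proximal fin none of the 6 genes was called by the authors' DESeq test, where 7.31% of all genes were, 3.51% higher and 3.80% lower. At an unadjusted p under 0.05 the count was 0 by DESeq and 2 by limma, *p4ha1a* and *p4ha1b*, with 0 called after adjustment in limma, which called 13.8% of its genes. The libraries of these positions overlapped for all 6 genes, whereas 9.29% of solved genes did not overlap. Between the distal and the middle fin 4 genes were called, *plod2* and *plod1a* higher and *p4ha2* and *p4ha3* lower, where 26.2% of all genes were called, 13.3% higher and 12.9% lower. Limma called 5 of the 6 there, where it called 38.7% of its genes. The 2 steps share the middle libraries. The libraries of the middle and distal fin did not overlap for 4 genes (*plod1a*, *plod2*, *p4ha1a* and *p4ha3*), against 23.0% of solved genes.

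Among the members of each family, the make-up of the reads within a library also differed by position. The plod shares and sums here leave out *plod3*, which had 2931 reads over the proximal, 3157 over the middle and 2896 over the distal libraries. With *plod3* included, the shares of *plod2* and the distal rise of the plod sum would be smaller. *plod2* gave 29.5% ± 4.45 of the reads of *plod1a* and *plod2* together proximally, 32.1% ± 3.03 in the middle and 64.2% ± 1.61 distally. There were 0.423 ± 0.0931, 0.474 ± 0.0686 and 1.80 ± 0.133 reads of *plod2* per read of *plod1a*, with distal libraries from 1.7003 to 2.03 and the others at 0.590 or less. Among the p4ha genes, *p4ha2* went from 62.5% ± 4.55 of their reads proximally to 57.9% ± 5.63 and 42.9% ± 4.87, and *p4ha1a* from 29.6% ± 3.23 to 35.6% ± 4.81 and 50.01% ± 3.96. Reads of *p4ha2* per read of *p4ha1a* numbered 2.15 ± 0.436, 1.67 ± 0.433 and 0.868 ± 0.179 from base to tip, and the distal libraries, from 0.714 to 1.17, lay below all others, of which the lowest was 1.27. Proximal and middle libraries overlapped in the ratio of *p4ha2* to *p4ha1a*, at 1.87 to 2.90 and 1.27 to 2.41. They also overlapped in the share of *p4ha2*, at 58.0% to 69.9% and 51.8% to 67.0%, and in that of *p4ha1a*. These ratios are not per length, so only their change between positions can be read. Summed over the family, p4ha normalized counts were 772 ± 43.0 proximally, 741 ± 74.4 in the middle and 624 ± 67.7 distally, and those of *plod1a* and *plod2* were 428 ± 60.8, 436 ± 33.2 and 1101 ± 101.

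**Figure D3:**
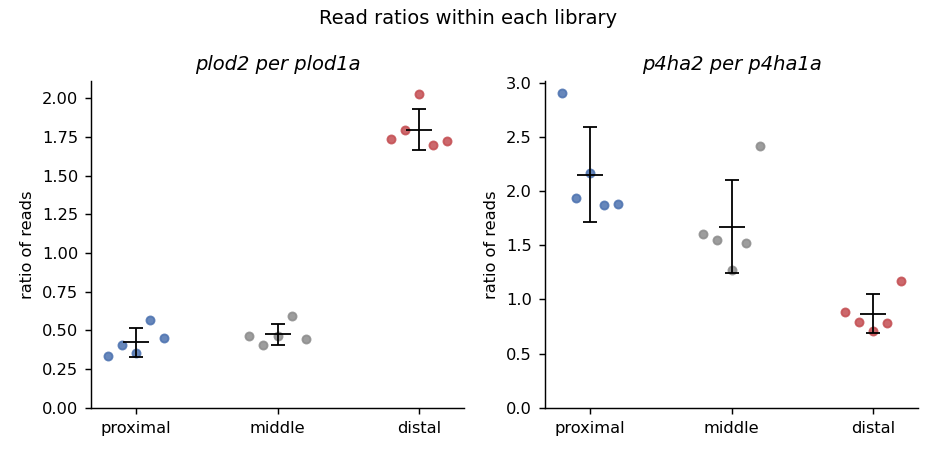
Reads of *plod2* per read of *plod1a* and of *p4ha2* per read of *p4ha1a* (vertical axes, from 0) in each library; the mark and bars are mean ± SD of 5 libraries. The first ratio is 1.7003 or more in each distal library and 0.590 or less elsewhere, and the second is below 1.27 in distal libraries alone.

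Of 10 measured genes whose products modify collagen beside these enzymes in the endoplasmic reticulum, 2 were called higher and 1 lower distally than proximally. These are 30.0% of the list, where 36.0% of all genes were called, and the median log2 fold change was −0.08, against −0.04 over all genes of the table. The partner subunit gene *p4hb* had 7090 ± 615 normalized counts proximally and 6915 ± 423 distally and was not called (fold 0.976, adjusted p = 0.856 in the authors' deposited table). *colgalt2*, whose product adds galactose to hydroxylysine, rose from 227 ± 14.1 to 380.5 ± 26.9 (1.68-fold, authors' adjusted p = 9.56e-08), and *p3h4*, whose mouse product takes part in lysine hydroxylation of collagen, from 195 ± 16.1 to 301 ± 16.7 (1.54-fold, authors' adjusted p = 2.51e-05). The prolyl 3-hydroxylase gene *p3h3* fell from 278 ± 9.47 to 218 ± 10.8 (authors' adjusted p = 0.0286).

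Of 24 collagen chaperones and secretion genes 4 were higher and 4 lower distally (median log2 fold change −0.05). That is 33.3% of the list, no more than the 36.0% called over all genes (17.9% higher and 18.1% lower). The collagen-binding matrix gene *sparc* rose from 6655 ± 237 to 13783 ± 260.3, and *creb3l1*, which encodes a transcription factor of secretory and bone-forming cells, from 564 ± 49.8 to 1112 ± 149. *sparc* was already at 11078 ± 912 in the middle fin (authors' adjusted p = 2.25e-10 against the proximal fin). Between the middle and the proximal fin 3 genes of this list were higher and 0 lower, 12.5% beside 7.31% of all genes. The transport coat gene *sec23b* rose 1.88-fold and *creb3l2* 1.49-fold. *serpinh1b*, a gene of the collagen chaperone Hsp47, stood at 522 ± 161 and 286 ± 102 and was called lower (authors' adjusted p = 0.0221). *sec31a*, *fkbp7* and *hsp90b1* had distal to proximal folds of 0.720, 0.750 and 0.797, all called lower by the authors.

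Genes of procollagen processing and cross-linking, which act after the hydroxylases and outside the cell, were called in both directions. Of 23 measured, 8 were higher and 4 lower distally than proximally (median log2 fold change 0.27), and 11 higher and 5 lower distally than in the middle. The first count is 52.2% of the list, beside 36.0% of all genes. The second is 69.6% of the list, beside 26.2% of all genes, 13.3% higher and 12.9% lower. Between the middle and the proximal fin 3 were higher and 4 lower, 30.4% of the list beside 7.31% of all genes. The procollagen C-proteinase enhancer genes *pcolce2b* and *pcolceb* rose from 22.9 ± 8.36 to 236 ± 19.3 and from 624 ± 62.1 to 1930.0 ± 88.0, while *pcolcea* fell from 468 ± 63.3 to 128 ± 27.8. In the middle fin *pcolceb* and *pcolcea* were already at 1004 ± 82.1 and 183 ± 29.2 (authors' adjusted p = 8.03e-08 and 3.94e-18 against the proximal fin), and *pcolce2b* was not called there. *adamts14* and *adamts2*, which encode procollagen N-proteinases, rose 1.85-fold and 1.82-fold. Lysyl oxidases oxidize lysines and hydroxylysines of collagen, from which cross-links then form. Of 9 lysyl oxidase genes 1 was higher, 2 lower and 6 not called distally against proximally, where 36.0% of all genes were called. *loxl3a* fell from 86.1 ± 6.54 to 14.1 ± 5.68 and *loxl1* from 1466 ± 88.8 to 712 ± 93.1. *loxl4*, named after its values were seen, rose from 636 ± 82.0 to 824 ± 74.9 (1.30-fold, authors' adjusted p = 0.00404). Against the middle fin 3 of the 9 were higher distally (*loxl2a*, *loxl2b* and *loxl4*) and 3 lower (*lox*, *loxl1* and *loxl3a*), where 26.2% of all genes were called. Of the 2 transglutaminase genes *tgm2l* fell from 47.1 ± 19.1 to 2.86 ± 2.35, and *tgm2b*, also named after its values were seen, rose from 281 ± 24.7 to 503 ± 44.4 (1.79-fold, authors' adjusted p = 1.21e-10). For the 8 other genes of this paragraph that are named between distal and proximal fin, the adjusted p in the authors' deposited table was between 1.37e-72, for *pcolce2b*, and 3.65e-08, for *adamts14*.

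Of 14 measured fibrillar collagen genes, whose products are substrates of both enzyme families, 10 were higher and 3 lower distally than proximally (median log2 fold change 0.49), 92.9% of the list beside 36.0% of all genes. *col11a1a* rose from 444 ± 109 to 2589 ± 178, *col24a1* 2.58-fold, *col2a1b* 2.39-fold and *col5a3b* 1.97-fold. *col27a1b*, *col11a1b* and *col27a1a* fell, with folds of 0.614, 0.708 and 0.780. These genes were already lower in the middle fin than proximally (DESeq adjusted p = 1.02e-05, 6.43e-09 and 0.0191). None of them was called between the distal and the middle fin. The type I collagen genes *col1a1a*, *col1a1b* and *col1a2*, named here after their values were seen, were higher distally than proximally. Their folds in the authors' deposited table (DESeq) were 1.28, 1.23 and 1.47, with adjusted p of 0.0359, 0.0198 and 1.17e-06. Between the middle and the proximal fin 3 of 15 fibrillar collagen genes were higher and 3 lower, 40.0% beside 7.31% of all genes. Between the distal and the middle fin 6 of 14 were higher and 0 lower, 42.9% beside 26.2%.

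**Figure D4:**
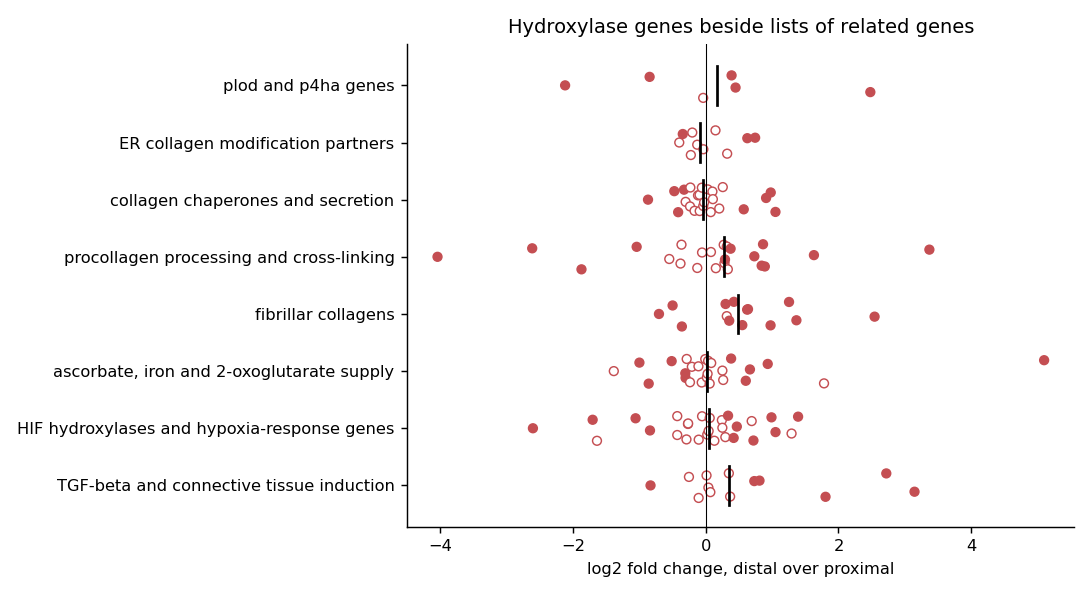
Log2 fold change of the distal over the proximal fin in the authors' table (horizontal axis) for the 6 hydroxylase genes and for the measured genes of 7 lists; filled circles have an authors' adjusted p under 0.05 and black bars are medians. Medians lie between −0.08 for the modification partners and 0.49 for the fibrillar collagens.

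Genes for the supply or use of cofactors were called in both directions, 5 higher and 5 lower of 25 (median log2 fold change 0.02). That share, 40.0%, is near the 36.0% over all genes (17.9% higher and 18.1% lower). The ascorbate transporter gene *slc23a2* rose from 2425 ± 194 to 3848 ± 493. *slc2a1b* was 1.52-fold higher, and *ogdhb*, a subunit gene of the 2-oxoglutarate dehydrogenase, 1.30-fold higher. The transferrin receptor genes *tfr1a* and *tfr1b* fell from 386 ± 92.2 to 193 ± 32.9 and from 2392 ± 311 to 1318 ± 83.2, and *slc40a1*, which encodes the iron exporter ferroportin, and *got1* had folds of 0.701 and 0.808. In mammals *PLOD2*, *P4HA1* and *P4HA2* are known to be induced in low oxygen through HIF. The list of HIF hydroxylases and hypoxia-response genes had 7 higher and 4 lower of 28 (median log2 fold change 0.05), and its share called, 39.3%, is likewise near the 36.0% over all genes. *bnip3* rose from 211 ± 41.2 to 554 ± 46.3, and *epas1a*, *adma* and *hif1al* rose 2.07-fold, 1.99-fold and 1.65-fold. *vegfab* fell from 112 ± 40.9 to 18.5 ± 4.05, *epas1b* from 141 ± 9.67 to 43.3 ± 2.43, and the HIF prolyl hydroxylase genes *egln2* and *egln1b* had folds of 0.481 and 0.559. The list of TGF-beta ligands, receptors and connective tissue genes had 5 higher and 1 lower of 13 (median log2 fold change 0.35), 46.2% beside the same 36.0%. *fn1b*, a fibronectin gene, rose 8.85-fold, *tgfbi* 6.59-fold, *ctgfb* 3.49-fold and the ligand gene *tgfb1a* 1.75-fold, and *postna* fell from 4660.4 ± 457 to 2618 ± 220.3. Against the middle fin, 9 of the 13 genes of this list were higher and 2 lower distally. That is 84.6% of the list, where 26.2% of all genes were called, 13.3% higher and 12.9% lower. Between the middle and the proximal fin 3 of the 13 were higher and 1 lower, 30.8% beside 7.31% of all genes.

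Marker genes of the cell types that make collagen also differed between the positions, and in bulk libraries fewer cells of a type and less RNA per cell cannot be told apart. Over all genes 36.0% were called distally against proximally, 17.9% higher and 18.1% lower. The called share was 28.6% of skeletal muscle markers, 60.0% of cartilage markers and 70.0% or more of each other list below. These lists hold few genes. Of 10 measured osteoblast and scleroblast markers 6 were higher and 1 lower distally than proximally. Their summed normalized counts ran from 5635 to 13373 in proximal, 5228 to 9910.5 in middle and 12442 to 19175 in distal libraries. The distal to proximal ratio of these sums was 1.68, with proximal and distal ranges that overlapped. The median log2 fold change of the 10 markers was 0.58, and 3 were not called. *sp7* (2.16-fold) and *alpl* (2.46-fold) are examples from the 6 that rose. The 1 marker called lower and the 3 not called are not named here, so these examples do not stand for the list. Fibroblast and ray mesenchyme markers were 7 higher and 1 lower of 9. Their sums were 7146 to 8635 proximally, 6860 to 9207 in the middle and 8635 to 9791 distally, a distal to proximal ratio of 1.20. The proximal and distal ranges only just separated, at 8634.7 and 8634.8, and the middle range overlapped both. All 3 actinodin genes, which mark cells that form actinotrichia, were higher, with sums of 6.50 to 13.6 proximally, 6.85 to 18.3 in the middle and 1668 to 2487 distally. Cartilage markers were 3 lower, 0 higher and 2 not called of 5, with sums of 1379 to 1717 proximally, 686 to 998 in the middle and 229 to 295 distally. Of the mean distal sum of 264, *sox9a* held 169 ± 36.6. Whether *sox9a* is among the 3 lower markers is not given here. Skeletal muscle markers were 0 higher and 2 lower of 7 (median log2 fold change −0.01). Their sums were 149.5 to 262 proximally, 176 to 375 in the middle and 110.0 to 151 distally. The distal to proximal ratio of these sums was 0.684, with proximal and distal ranges that overlapped. *mylpfa* was at 2.29 normalized counts proximally and 2.27 distally, too few reads to show whether it changed. Melanophore markers were 4 higher of 4, leukocyte markers 1 higher and 3 lower of 5, epidermis markers 3 higher and 2 lower of 6 and endothelium markers 2 higher and 1 lower of 4. The part of these cell types in the changes of the hydroxylase genes was not tested. Of the 6 caudal fin identity genes of HOX group 13, all with reads in each position, 4 were higher and 1 lower distally than proximally, and the ratio of their summed counts was 1.48.

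Over the 15 libraries the genes whose log2(normalized count + 1) followed a hydroxylase gene most closely were, for *plod2*, the FGF-responsive transcription factor gene *etv5b* (Pearson's r = 0.995), the receptor gene *igf1rb* (r = 0.991) and the protocadherin gene *pcdh12* (r = 0.98999). They rose 2.84-fold, 2.12-fold and 2.85-fold distally in the authors' deposited table. For *plod1a* they were *anxa13* (r = 0.945), *ccdc85b* (r = 0.926) and *rsu1* (r = 0.922), for *p4ha1a* *pde3b* (r = 0.948), *prickle1a* (r = 0.937) and *tspan35* (r = 0.935), and for *p4ha2* the chemokine gene *cxcl8b.1* (r = 0.949), *nol9* (r = 0.948) and *gpr31* (r = 0.942). For *p4ha1b* the closest were *hpcal1* (r = 0.842), the T-box gene *tbx15* (r = 0.829) and *tpte* (r = 0.807). *p4ha3* had a mean under 20 and was not compared. The libraries fall into 3 positions, so a correlation here mainly describes the difference between positions that both genes share. Between hydroxylase genes r was 0.861 for *plod1a* and *plod2*, 0.814 for *plod2* and *p4ha1a*, −0.881 for *plod2* and *p4ha2* and 0.02 for *p4ha1a* and *p4ha1b*.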

How the data were processed

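RNA of 15 caudal fin pools was extracted with TRIzol, depleted of ribosomal RNA and read as 50 bp pairs, per the labels' protocols. TopHat2 2.0.13, HTSeq, DESeq and GRCz10 appear, without role or order, per the submitters' processing notes. Annotation, strand setting and filters: not given in the sources used here. Deposited by the authors were 3 pairwise tables and 1 monotonic table. Per the file headers and values, the signal columns hold the mean per position of counts divided by a size factor, the fold is the ratio of these means, the log2 column is its log2, and each p-value is from the authors' DESeq run, raw and adjusted. The score of the authors' monotonic table was not used; its signal columns, headed rpm, gave the scale over all 15 libraries, and none of the 6 genes is in it.

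Each mean has 15 digits and is a sum of 5 whole counts times 5 constants, found from sparsely read genes. Lattice reduction on 2 tables per position gave the counts: 23456 of 23495 genes had a single solution in all positions. Means of the monotonic table kept out of the scaling were met within 1e-09 for 570, 569 and 568 of 570, 569 and 568 genes above 0. Tested on simulated data, 3000 genes per position, all counts were recovered.

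The authors' adjusted p under 0.05 was the test. The members and lists, and the rule for naming (all 6 genes, and up to 4 called genes of largest change per list and direction with a mean of at least 20), were chosen with earlier results of these data known. As an alternative, limma 3.58.1 (voom, 1 fit of 15 libraries, at least 10 reads in at least 5 libraries, 18832 genes) was fitted, with no filter, other scalings, only the positions compared, and without each library. Tested on simulated data for the distal and proximal fin (18730 genes), it called 67.2% of genes changed 1.5-fold and 100% of those changed 2-fold, with 10 unchanged genes called. The simulation gave all genes the same dispersion and changed only genes with a mean of at least 20. Its shares may not hold for genes with a wider spread between libraries. The SD reached 47.0% of the mean for *p4ha1b* in the middle and 75.1% for *p4ha3* distally. It reached 24.4% for *plod2* proximally and 20.7% for *p4ha2* distally. Python 3.11.15 and R 4.3.3 were used.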

Additional observations from a re-analysis of the deposited data

Results flagged for a closer look

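In 2 of 21 groups of 5 libraries, 1 library lay apart from the other 4 by Dixon's test; chance alone flags about 1 in 20 such groups. Distal library 1 had 358 normalized counts of *p4ha1a*, with the next highest distal library at 311, and the distal mean without it was 299 in place of 311. Middle library 4 had 661 normalized counts of *plod3* (wu:fb72h05), with the next at 588, and the middle mean without it was 579 in place of 595.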

How the results depend on the processing

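The number of hydroxylase genes called kept to within 1.5 times of 5, 0 and 4 (distal to proximal, middle to proximal, distal to middle) in each of 6 other settings and each of 15 fits without 1 library. For *plod2* the distal to proximal log2 fold change ran from 2.41 to 2.61 without each library in turn, and for *p4ha2* from −0.96 to −0.79. The changes of *plod2*, *plod1a*, *p4ha1a*, *p4ha2* and *p4ha3* between distal and proximal fin stayed called in each limma fit and at an adjusted p under 0.01. The distal to middle step of *p4ha1a*, not called by the authors, was called in 4 limma fits (adjusted p from 0.0184) but not with totals of solved genes as scale (adjusted p = 0.0607). That of *p4ha1b* was called in limma only without middle library 2 (log2 fold change 0.81, adjusted p = 0.0235). Some uncalled values turned sign with positions scaled to equal totals: *p4ha1b* distal against proximal (log2 fold change 0.0613), *plod1a* (0.0327) and *p4ha3* (0.0279) middle against proximal. Without 1 library these values ran from −0.12 to 0.14, −0.0769 to 0.0529 and −0.13 to 0.13. In limma the lower calls distal against proximal of the modification partners were 2. Between middle and proximal fin limma called 1 modification partner, 3 hypoxia-list genes and 2 TGF-beta list genes lower and 2 cofactor genes higher, where the authors' counts were 0, 1, 1 and 1. The closest genes by correlation were the same 3 of 3 with a pseudocount of 5 for all 5 genes compared. No paired analysis was possible because the recovered libraries carry no replicate numbers of the labels. Depth limits *p4ha3* most, with 22 distal reads. Each library is a pool of 4 fish per the labels, so p-values measure the spread between pools of a position. Whether pools of different positions shared fish is not known here, and the limma fits did not pair libraries.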

Other observations

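The genes beside the hydroxylase genes, by their order in RefSeq's GRCz12tu annotation, are given as values only, since the authors' tables use another build and the strand setting of the counts is not known here. Next to *p4ha2*, *hspa4a*, a heat shock protein gene, went from 4157 ± 864 normalized counts proximally to 2293 ± 405 distally (n = 5 libraries each), a fold of 0.552 in the authors' deposited table (DESeq, adjusted p = 8.53e-05). Next to *plod1a*, *mfn2*, whose product fuses mitochondria, rose from 2592 ± 183 to 4622 ± 467 (1.78-fold, DESeq adjusted p = 1.80e-13). Next to *p4ha1b*, the alpha-actinin gene *actn2b* fell from 28.0 ± 2.85 to 2.83 ± 0.651 (DESeq adjusted p = 9.50e-13), while *p4ha1b* itself was not called. *sars2*, next to *p4ha3*, was at 149 ± 11.2 and 121 ± 6.67 and was not called (DESeq adjusted p = 0.117). On the other side of *plod1a*, si:dkeyp-104h9.5 rose 1.23-fold (DESeq adjusted p = 0.0374). Sparsely read and not called were si:ch73-206p6.1 next to *plod2* (3.48 ± 2.03 and 0.430 ± 0.596, DESeq adjusted p = 0.0509) and *nudt13* next to *p4ha1a* (9.40 ± 2.70 and 17.7 ± 6.02, DESeq adjusted p = 0.0567). The same held for si:ch211-248a14.8 next to *p4ha1b* (9.01 ± 2.67 and 3.57 ± 2.10, DESeq adjusted p = 0.0683).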
